A study of Homo sapiens with 8 samples.

Results

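DPH5 and the other enzymes that build diphthamide were followed, together with their substrate EEF2, through splice junction reads from K562 cells with wild-type or K700E-mutant SF3B1. The group was a fixed list of 7 genes, DPH5, DPH1, DPH2, DPH3, DPH6, DPH7 and EEF2, out of 21212 genes with spliced reads. These 7 genes held 326 of the 860791 junctions seen in the 8 libraries. K562 is an established human erythroleukaemia line, and SF3B1 is the subunit of the U2 snRNP that contacts the intron branch site. The 8 libraries formed 4 groups of 2: SF3B1 WT at day 4, SF3B1 K700E at day 4, SF3B1 WT at day 8 and SF3B1 K700E at day 8. Every library, WT included, carries the same treatment label, doxycycline at 1 ug/ml to induce the modified allele. The labels do not say whether a genotype was 1 clone or whether replicates were separate cultures, so p-values measure only the spread between these libraries, which may be technical.

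Diphthamide is a modified histidine found in eukaryotes on a single protein, the translation elongation factor eEF2, where it is the site that diphtheria toxin and Pseudomonas exotoxin A inactivate. A heterodimer of DPH1 and DPH2, supplied with electrons through DPH3, transfers a carboxypropyl group from S-adenosylmethionine to the histidine, and DPH5 then methylates this intermediate. DPH7 removes a methyl ester and DPH6 adds the final amide. SF3B1 with a hotspot substitution is known for splicing to cryptic acceptors a short way upstream of the normal 3′ splice site.

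The intron that carried the main splicing change joins exon 6 to exon 7 of the 8 exons of the principal DPH5 transcript, on the minus strand of chromosome 1 (hg38). Its donor, given as the first intron base, lies at 100995109 and its reference acceptor, given as the last intron base, at 100992741. The cryptic acceptor at 100992755 is 14 nt upstream of the reference acceptor and is in no GENCODE release 29 intron. Annotated junctions from the same donor also reach exon 8 directly, at 100990632 or at 100990629, and so leave out exon 7. The annotated outcomes are given in RNA sense from the GENCODE release 29 transcript, because they show where the cryptic bases are added. The last 15 bases of exon 6 (chr1:100995110-100995124) are in lower case and the first 15 bases of the exon joined to them are in capitals, taken from chr1:100992726-100992740 for exon 7 and from chr1:100990617-100990631 for exon 8.
Exon 6 joined to exon 7: ggaaaatctaatcaaGGGAAGGAAGATCTA
Exon 6 joined to exon 8: ggaaaatctaatcaaCAGTTACCGAGGAGA
The 14 bases that the cryptic acceptor adds lie between the lower-case and the capital letters of the first line. No intron sequence was used here, so those 14 bases were not read.

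Because 14 leaves a remainder of 2 when divided by 3, the added bases shift the reading frame of exon 7. The whole of exon 7, 104 nt at chr1:100992637-100992740 has the first stop codon met in the shifted frame in capitals.
Exon 7: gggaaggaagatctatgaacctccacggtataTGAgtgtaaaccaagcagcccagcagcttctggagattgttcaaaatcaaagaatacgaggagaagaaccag
That stop begins at base 33 of exon 7, is codon 193 of a reading frame that has 285 codons in the reference form, and ends 69 nt before the last exon junction. An earlier stop within the 14 unread bases cannot be told apart from this one. Leaving out exon 7 also shifts the frame, and the first stop is then codon 241, in the last exon. The 2 exon 8 acceptors differ by 3 bases, which are the capitals in the next line.
Start of exon 8 (chr1:100990617-100990631): CAGttaccgaggaga
Of the 4 annotated protein-coding DPH5 transcripts, 3 hold the reference intron.

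Each library held between 49338071 and 77750812 uniquely mapped junction reads. The label that calls the cells epithelial went against the data in part: the erythroid factor GATA1 stood at 109 to 229 RPM (junction reads scaled to library size) in all 8 libraries, while the adherens junction gene CDH1 had 0 reads in 5 libraries, although keratins such as KRT18 (209 to 1280 RPM) were high. As a check of the genotype labels, the share of reads at the cryptic acceptor was taken in 12 other known SF3B1 hotspot targets. Its median was 1.67% and 2.91% in the WT day 4 libraries and 36.3% and 37.9% in the K700E day 4 libraries. At day 8 the labels did not hold: the median was 0.728% in the library labelled WT replicate 1, 42.7% in the library labelled WT replicate 2, 3.48% in the library labelled K700E replicate 1 and 38.8% in the library labelled K700E replicate 2. Day 4 was therefore tested alone, and day 8 is given under its labels, with no library moved. The day 8 libraries labelled WT also stood apart in that 4.47% and 6.26% of their unannotated junctions rested on 1 read, against 28.5% to 42.3% in the other 6 libraries.

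At day 4, the cryptic acceptor of DPH5, the methyltransferase of the pathway, was nearly unused in WT and took about as many reads as all other acceptors of its donor in K700E. The cryptic acceptor took 2 of 446 reads leaving the donor (0.448%, 95% Wilson interval 0.123 to 1.62) in WT replicate 1 and 6 of 611 (0.982%, 0.451 to 2.13) in WT replicate 2. It took 130 of 274 reads (47.4%, 41.6 to 53.4) in K700E replicate 1 and 161 of 300 (53.7%, 48.0 to 59.2) in K700E replicate 2. Both K700E libraries were far above both WT libraries, and their intervals did not overlap; these intervals cover counting error only. The share rose by 49.8 percentage points, from 0.715% ± 0.377 to 50.6% ± 4.40 (SD, n = 2 libraries per group; edgeR, adjusted p = 4.33e-06). A share was called where the adjusted p was below 0.05 and the groups were 5 or more percentage points apart. Of all 69838 junctions tested for their share at day 4, 0.359% were called higher, and 0.468% were called in either direction.

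As a share of the reads leaving the donor, the gain of the cryptic acceptor had its counterpart at the reference acceptor and not in exon skipping. The reference acceptor took 395 and 511 reads in the WT libraries and 99 and 104 in the K700E libraries. Its share fell from 86.1% ± 3.49 to 35.4% ± 1.04 (SD, n = 2; edgeR, adjusted p = 0.0188), a call made in the lower direction for 0.109% of tested junctions. Junctions that leave out exon 7 took 47 and 94 reads in the WT libraries and 45 and 35 in the K700E libraries. As a share this was 13.0% ± 3.43 in WT and 14.0% ± 3.36 in K700E (SD, n = 2), so the groups overlapped, and neither skipping acceptor was called. Among cryptic and reference reads alone the cryptic share was 57.9 percentage points higher in K700E.

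**Figure D1:**
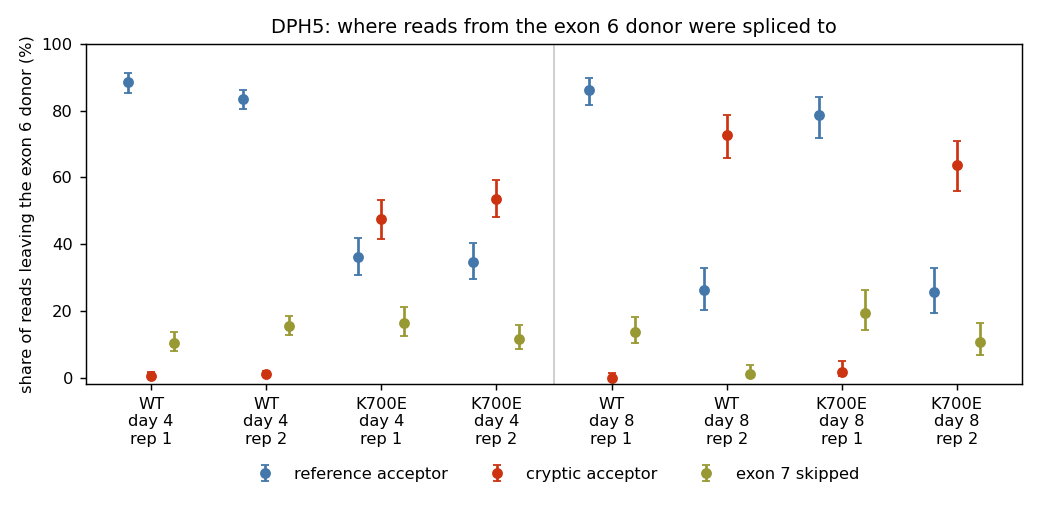
Share of reads leaving the DPH5 exon 6 donor (y axis, percent) that joined the reference acceptor, the cryptic acceptor or exon 8, in each of the 8 libraries under their labels (x axis); bars are 95% Wilson intervals. The cryptic share is near 50% in both K700E day 4 libraries, near 0 in both WT day 4 libraries, and differs between the 2 day 8 libraries of each label.

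In absolute level, the reference junction lost more CPM than the cryptic junction gained. The reference junction stood at 7.46 and 8.27 CPM (counts scaled to library size, with TMM factors) in the WT day 4 libraries and at 1.37 and 1.72 CPM in the K700E day 4 libraries. It was 5.04-fold lower in K700E (log2 change -2.33, SE 0.22; edgeR, adjusted p = 0.00418). The cryptic junction stood at 0.0378 and 0.0971 CPM in WT and reached 1.79 and 2.66 CPM with K700E (log2 change 4.99, SE 0.51; edgeR, adjusted p = 0.00603). Cryptic and reference reads together came to 7.93 ± 0.611 CPM in WT and 3.77 ± 0.862 CPM in K700E (SD, n = 2), so the sum of both products was also lower in K700E. The abundance calls for these junctions were lost when either WT library was left out (adjusted p = 0.0594 and 0.0708 for the reference junction, 0.0749 and 0.0555 for the cryptic one), with the direction unchanged. Neither these calls nor that of the share was made when all 8 libraries entered 1 fit, which takes the spread between the day 8 libraries of each label as replicate error.

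**Figure D2:**
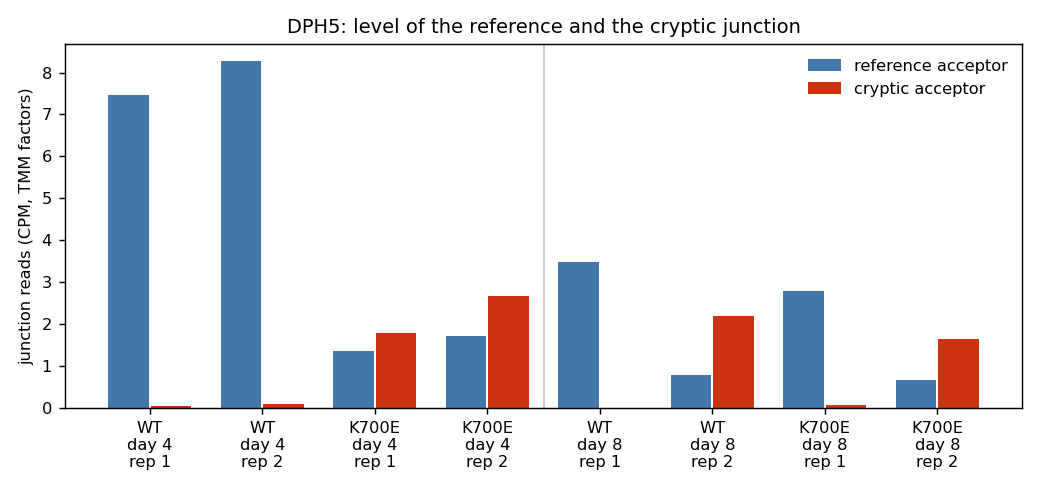
Level of the DPH5 reference and cryptic junctions (y axis, CPM with TMM factors) in each of the 8 libraries under their labels (x axis), 1 bar per junction. The reference junction is highest in the 2 WT day 4 libraries (7.46 and 8.27 CPM), and the cryptic junction does not reach that level in any library.

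The remaining DPH5 introns were lower in K700E as well, upstream and downstream of the cryptic site. Of the 7 reference introns of the principal transcript, intron 6 changed most, and the other 6 had log2 changes between -1.22 and -0.83. Introns 2 (-1.14, adjusted p = 0.0402, edgeR), 4 (-1.03, adjusted p = 0.0390) and 7 (2.01-fold lower, adjusted p = 0.0434) were called lower. Introns 1, 3 and 5 were also lower but were not called (edgeR, adjusted p = 0.0949, 0.0850 and 0.0748). In all, 4 of 16 tested DPH5 junctions were called lower and 1, the cryptic junction, was called higher. Over all 156860 junctions tested for abundance, 1.97% were called, 1.12% lower and 0.851% higher. Summed over annotated introns, the part of DPH5 upstream of the donor had a mean of 34.9 CPM in WT and 18.1 CPM in K700E, a ratio of 1.93, and the part downstream of exon 7 had 8.60 and 4.31 CPM, a ratio of 1.99.

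**Figure D3:**
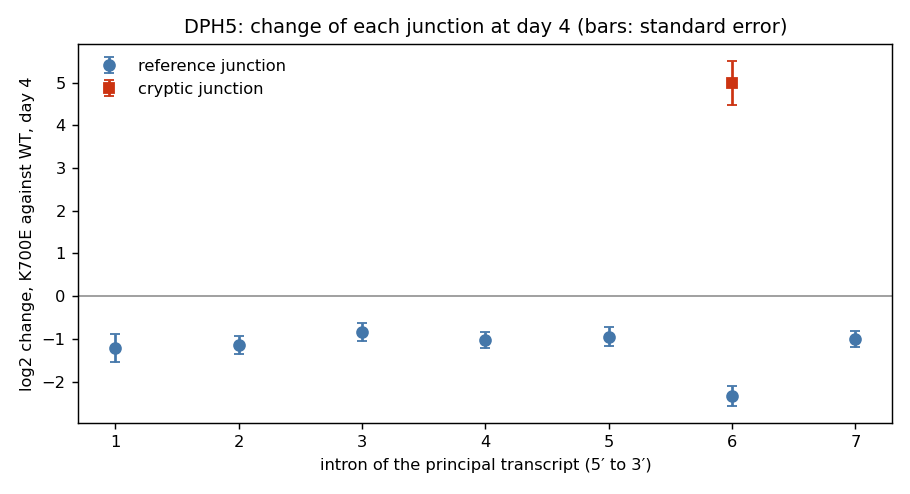
Change of junction reads at day 4, K700E against WT (y axis, log2, with standard errors), for the 7 reference introns of the principal DPH5 transcript in transcript order (x axis) and for the cryptic junction of intron 6. Introns other than intron 6 lie between -1.22 and -0.83, the reference junction of intron 6 at -2.33 and the cryptic junction at 4.99.

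As a gene, DPH5 was 48.1 and 57.0 CPM in the WT day 4 libraries and 23.6 and 25.4 CPM in the K700E day 4 libraries, summed over annotated introns. Both K700E libraries were below both WT libraries. The gene sum was 2.12-fold lower in K700E (log2 change -1.08, SE 0.16), and with an adjusted p of 0.0651 (edgeR) it did not pass the threshold. The gene-level fit called 74 of 13991 genes (0.529%; 0.229% higher and 0.3% lower), and 2979 had an unadjusted p under 0.05. DESeq2, which called 1640 genes, gave DPH5 an adjusted p of 1.89e-06, and edgeR with no filter on low counts, which called 1567 genes, passed it as well (0.000752). With 1 library left out, edgeR passed it without K700E replicate 1 (0.00338, with 2536 genes called) or K700E replicate 2 (0.00254, 1255 genes called). It was far from the threshold without WT replicate 1 (0.459) or WT replicate 2 (0.487), where no gene was called, and in the fit of all 8 libraries (0.433). The gene sum was also lower without the cryptic intron: without the introns of its donor the log2 change was -0.94 (adjusted p = 0.0859, edgeR), and with the cryptic junction added it was -0.96 (adjusted p = 0.0817). In bulk RNA, fewer cells of a type and less RNA per cell cannot be told apart. Of the 6 listed megakaryocyte markers, 4 were tested at day 4 and 1 was called higher, the integrin gene ITGA2B. The other tested ones, ITGB3, PLEK and THBS1, were also higher in both K700E libraries than in both WT libraries. Their log2 changes were 2.40, 3.17 and 4.13, and they were not called (edgeR, adjusted p = 0.0936, 0.150 and 0.0871). PF4 was at 0 in 7 of 8 libraries. The 6 markers summed to 12.2 and 22.5 RPM in WT and to 127 and 135 RPM in K700E, of which ITGA2B alone made up 10.95 and 18.8 in WT and 96.9 and 96.2 in K700E. The 10 erythroid markers summed to 1687 and 1378 RPM in WT and 1591 and 897 in K700E, with none called. The 7 epithelial markers summed to 800 and 878 RPM in WT and 679 and 473 RPM in K700E, without overlap and with none of the 5 tested called. The part of such shifts in the DPH5 level was not tested.

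At day 8, DPH5 splicing separated the libraries within each label. The cryptic acceptor took 0 of 290 reads in the library labelled WT replicate 1, which allows a share of up to 1.03% by the limit of 3 counts and 1.31% by the Wilson interval, and 136 of 187 (72.7%, Wilson 65.9 to 78.6) in the library labelled WT replicate 2. It took 3 of 169 (1.78%, 0.606 to 5.09) in the library labelled K700E replicate 1 and 102 of 160 (63.8%, 56.1 to 70.8) in the library labelled K700E replicate 2. The same libraries were high and low as in the 12 other targets. Under the labels the share differed by -3.40 percentage points (K700E minus WT) and was not called. At day 8 edgeR called 0 of 63314 tested junctions for their share (0%), with 1765 at an unadjusted p under 0.05, and of the 54 tested junctions of the 7 genes 1 had an unadjusted p under 0.05. Without the library labelled K700E replicate 1 the difference was 27.8 points, and without that labelled WT replicate 1 it was -39.8 points. The interaction of genotype and day was -53.4 points for the share (8-library fit, edgeR, adjusted p = 0.677), where 0 of 94959 junctions were called and 5627 had an unadjusted p under 0.05.

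The library labelled WT day 8 replicate 2, which had the highest cryptic share, also had the fewest reads that left out exon 7, 2 of 187. The other 3 day 8 libraries had 40 of 290, 33 of 169 and 17 of 160. Its reference junction stood at 0.786 CPM and its cryptic junction at 2.18 CPM, against 0.663 and 1.65 CPM in the library labelled K700E replicate 2. The libraries labelled WT replicate 1 and K700E replicate 1 had reference junctions at 3.47 and 2.79 CPM. All 4 were below the WT day 4 level of the reference junction.

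The DPH5 gene sum was lower at day 8 than at day 4 whatever the label. It was 19.4 and 17.2 CPM in the day 8 libraries labelled WT and 20.7 and 13.1 CPM in those labelled K700E, so the labels overlapped (log2 change -0.15, SE 0.33, not called; 0 of 13990 genes called by edgeR, 408 at an unadjusted p under 0.05). In order of level, WT day 4 (52.6 ± 6.31 CPM; SD, n = 2) stood apart at the top, followed by K700E day 4 (24.5 ± 1.27), WT day 8 (18.3 ± 1.60) and K700E day 8 (16.9 ± 5.34). The last pair did not differ beyond their spread, and K700E day 4 against WT day 8 was not tested. Over both genotypes, DPH5 fell 2.04-fold from day 4 to day 8 (log2 change -1.03, SE 0.18; 8-library fit, edgeR, adjusted p = 0.00489). This comparison was added after the values were seen, and 36% of all 14902 genes were called in it, 18% lower and 18.1% higher. The genotype effect differed between days by 0.99 on the log2 scale (SE 0.36, adjusted p = 0.513, edgeR), with 0 of 14902 genes called and 1371 at an unadjusted p under 0.05.

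None of the 7 genes passed the threshold at the gene level at day 4 or, as labelled, at day 8 (edgeR). At day 4, 3 of the 7 had an unadjusted p under 0.05, as did 21.3% of all genes tested, and DESeq2 called 1 of the 7, DPH5, among its 1640 genes. At day 8 none had an unadjusted p under 0.05. All 7 passed the expression filter on both days. Over all genes the median log2 change at day 4 was 0.016.

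Both subunits of the enzyme of the first step, DPH1 and DPH2, had log2 changes above 0 at day 4, and neither was called. DPH2, a subunit of the radical enzyme that modifies the histidine, stood at 6.99 and 7.09 CPM in the WT day 4 libraries and at 9.51 and 13.3 CPM in the K700E day 4 libraries. The groups did not overlap, and the log2 change of 0.71 (SE 0.25) had an adjusted p of 0.197 (edgeR). DPH1, its partner, stood at 25.5 and 16.5 CPM in WT and at 21.9 and 30.7 CPM in K700E, so the groups overlapped (log2 change 0.34, SE 0.29). DPH3, the electron carrier, stood at 15.2 CPM in both WT libraries and at 9.91 and 16.9 CPM in the K700E libraries, which lay on either side of WT.

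DPH1 and DPH2 were both higher at day 8 than at day 4, where DPH5 was lower. The day 8 libraries held 34.4 and 48.7 CPM of DPH1 under the WT label and 54.7 and 51.4 CPM under the K700E label, and all 4 were above all 4 day 4 libraries. Over both genotypes DPH1 rose 2.00-fold (log2 change 1.00, SE 0.21; edgeR, adjusted p = 0.00954). At day 8 DPH2 stood at 10.9 and 23.96 CPM under the WT label and at 26.6 and 24.7 CPM under the K700E label. The library labelled WT replicate 1 was far below the other 3, and also below K700E day 4 replicate 2 (13.3 CPM). The days therefore overlapped for DPH2. DPH2 rose 2.36-fold over both genotypes (log2 change 1.24, SE 0.27; edgeR, adjusted p = 0.0110). DPH3 had a log2 change of 0.63 (adjusted p = 0.0597) and DPH6 of -0.58 (adjusted p = 0.0942) in that comparison.

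**Figure D4:**
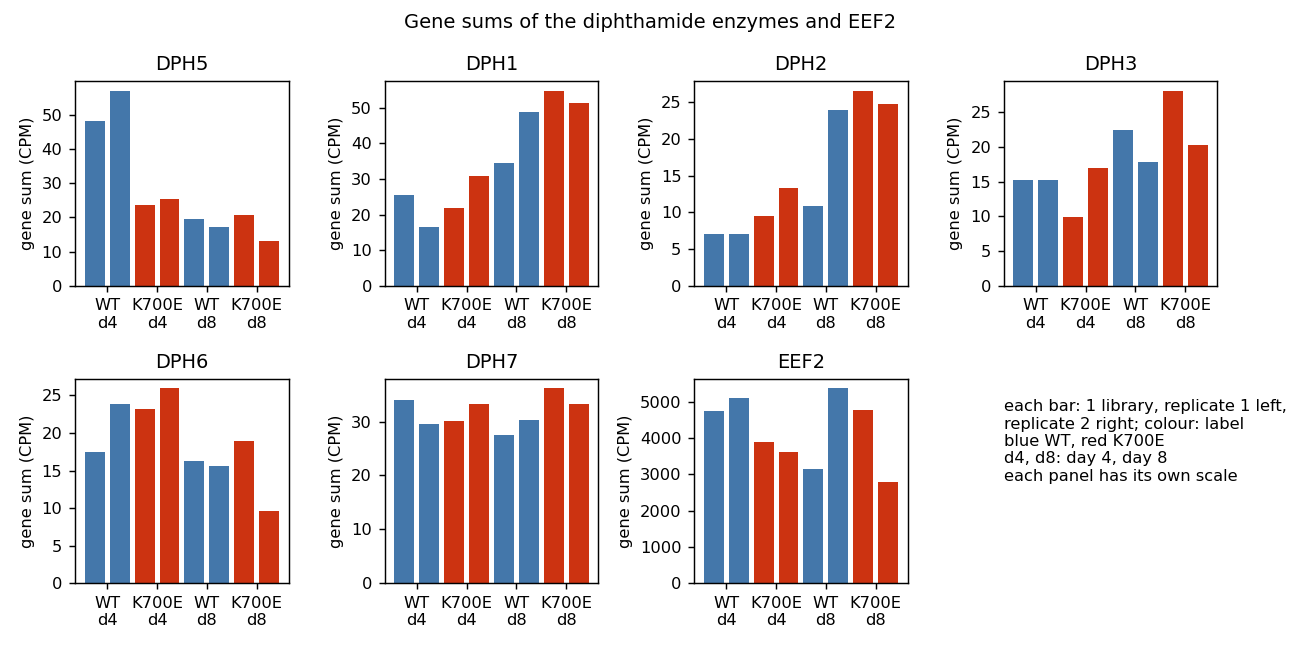
Gene sums (y axis, CPM with TMM factors, 1 scale per panel, starting at 0) of the 7 genes in each of the 8 libraries under their labels (x axis; replicate 1 left, replicate 2 right). DPH5 is highest in the 2 WT day 4 libraries (48.1 and 57.0 CPM), and DPH1 is higher in every day 8 library than in any day 4 library.

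The enzymes of the last steps were not called at day 4. DPH7, which removes the methyl ester, stood at 33.9 and 29.5 CPM in WT and at 30.2 and 33.2 CPM in K700E (log2 change 0.01, SE 0.17). DPH6, which adds the final amide, stood at 17.5 and 23.8 CPM in WT and at 23.2 and 25.9 CPM in K700E (log2 change 0.26, SE 0.22), and the groups overlapped in both genes. At day 8 DPH6 ranged from 9.67 to 18.9 CPM, with both extremes under the K700E label, and DPH7 from 27.5 to 36.1 CPM.

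EEF2, which carries the diphthamide residue, stood at 4740 and 5117 CPM in the WT day 4 libraries and at 3891 and 3629 CPM in the K700E day 4 libraries. The groups did not overlap, and the log2 change of -0.37 (SE 0.10) had an adjusted p of 0.137 (edgeR). At day 8 EEF2 was 3141 and 5369 CPM under the WT label and 4765 and 2796 CPM under the K700E label, so each label spanned a wide range. Per intron of the principal transcript, which allows genes to be compared, EEF2 had 202 to 390 RPM, whereas the enzymes had between 1.08 (DPH1, WT day 4 replicate 2) and 11.3 (DPH3, the library labelled K700E day 8 replicate 1). On this per-intron scale DPH5 stood at 5.63 and 6.38 in the WT day 4 libraries and at 2.82 and 2.99 in the K700E day 4 libraries, beside 1.14 and 1.11 against 1.69 and 2.38 for DPH2.

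**Figure D5:**
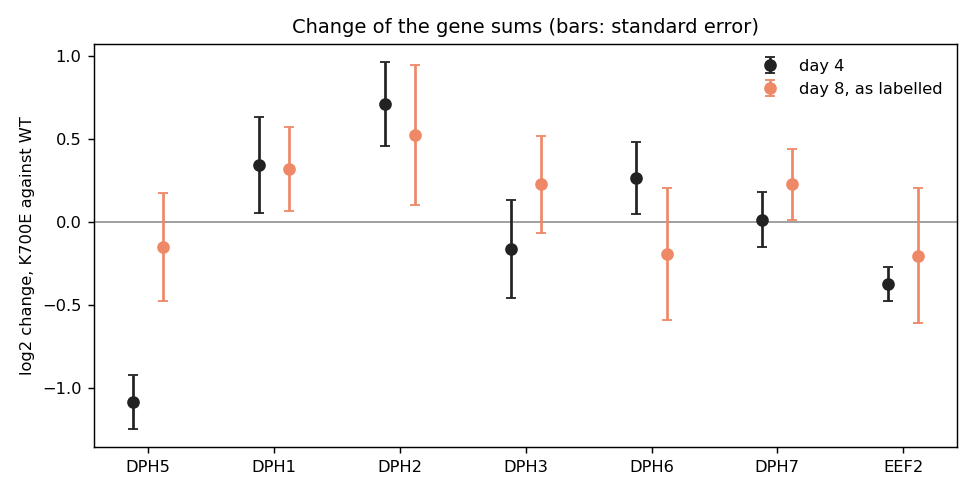
Log2 change of the gene sums, K700E against WT (y axis, with standard errors), for the 7 genes (x axis) at day 4 and, as labelled, at day 8. DPH5 lies at -1.08 at day 4 and at -0.15 at day 8, and none of the 14 values passed the threshold.

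Outside DPH5, 42 junctions of the other 6 genes could be tested for their share at day 4, and none was called, with 10 at an unadjusted p under 0.05 (edgeR), beside 4903 of all 69838 junctions tested. Of 67 tested for abundance none was called, with 23 at an unadjusted p under 0.05, beside 30182 of all 156860. The most used alternative acceptor of DPH7 was an annotated one at 137576168 on chromosome 9, 235 nt downstream of the reference acceptor. It took 16.4% and 12.4% of reads in the WT day 4 libraries and 41.2% and 37.0% in the K700E day 4 libraries, a difference of 24.7 points (edgeR, adjusted p = 0.160). At day 8 it took 14.6% and 25.6% under the WT label and 37.8% and 52.5% under the K700E label. The labels did not overlap on either day, and no call was made on either. However, the day 8 labels did not hold in the check of cryptic splicing. The day 8 libraries high in cryptic splicing (25.6% and 52.5%) overlapped those low in it (14.6% and 37.8%). An unannotated DPH7 junction from 137576079 to 137575895, named after its values were seen, took 18.5% in WT and 3.23% in K700E at day 4 (adjusted p = 0.0578).

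DPH3 used an annotated acceptor at 16260830 on chromosome 3, 3400 nt beyond the reference one, for 25.9% of reads in each WT day 4 library and for 7.07% and 17.1% in the K700E day 4 libraries. Both K700E libraries were below WT but lay apart from each other (adjusted p = 0.916, edgeR), and the share was 29.5% to 37.3% in the day 8 libraries. In EEF2, an unannotated junction to 3979514 on chromosome 19, 77 nt upstream of the reference one, took 0.781% and 1.24% in WT and 0.429% and 0.197% in K700E at day 4 (edgeR, adjusted p = 0.0660). This difference of -0.697 points was below the 5 points needed for a call, whatever the p. The most used alternatives of DPH6 (35 reads over the 8 libraries) and DPH2 (50 reads) were thinly covered, and that of DPH1 had 24 reads, 21 of them in the library labelled WT day 8 replicate 1.

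Within DPH5, 2 further alternatives were chosen for description after their values were seen. The annotated junction from 101025682 to 101021766, which leaves out exon 2, took 5.67% of reads in WT and 24.5% in K700E at day 4 (edgeR, adjusted p = 0.197, not called). An unannotated junction from exon 4 to an acceptor 43 nt downstream of the reference one, at 101001545, took 4.57% in WT and 12.2% in K700E (adjusted p = 0.318), and it took between 7.09% and 16.5% in the day 8 libraries, where the labels overlapped. DPH5 thus had 2 called junctions of the 14 tested for share, the cryptic and the reference acceptor of intron 6.

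The 27 further genes covered translation elongation and termination, eEF2 regulation, hypusine synthesis, the Elongator complex and toxin entry, with DNAJC24 and OVCA2, which overlaps DPH1. Of these, 25 were tested at day 4 and none was called (edgeR), with 5 at an unadjusted p under 0.05, beside 21.3% of all genes. Their median log2 change was -0.04, and 12 were above 0. DNAJC24, the J-domain protein of the first diphthamide step, had a log2 change of 0.34 (adjusted p = 0.392). The lowest was ELP2, a scaffold subunit of the tRNA-modifying Elongator complex, at -1.05 (SE 0.15, adjusted p = 0.0650), and the highest was EEF2KMT, a lysine methyltransferase of eEF2, at 0.66 (SE 0.31, adjusted p = 0.295). The diphtheria toxin receptor gene HBEGF was near the lower limit, at 0.572 CPM in WT and 0.714 CPM in K700E in mean.

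Among the acceptors whose share followed that of DPH5 most closely over the 8 libraries, out of 215047 compared, were those in IQGAP3, HIGD2A, DDHD2 and TOR1AIP2, with Pearson r between 0.995 and 0.999. That of IQGAP3, 9 nt upstream of its reference acceptor, took 0% in both WT day 4 libraries, 25.9% and 28.8% in the K700E day 4 libraries and 38.4% in the library labelled WT day 8 replicate 2. Among the genes whose sum followed the DPH5 gene sum most closely, out of 14901, were NAP1L1, PPP1R14C, APTR and LZTFL1, with r between 0.982 and 0.995. NAP1L1 stood at 2338 and 2940 CPM in WT day 4 and at 1321 and 1253 CPM in K700E day 4. These are descriptions over 8 libraries that fall in separate sets by cryptic splicing or by day, and the genes were picked as the highest of many.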

How the data were processed

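Strand-specific RNA-seq libraries (dUTP protocol, per the labels' protocols) of 2 replicates in 4 groups were used. The submitters' processing notes name cutadapt, STAR and hg38; the aligner was STAR 2.7.0e with GENCODE releases 22 and 29, per the file headers. The deposited values are counts of uniquely mapped reads per splice junction, with multi-mapped counts beside them, not normalized; these counts were used as deposited. An unannotated canonical junction was listed if its best overhang was at least 12 nt, per the file headers. A read needed an overhang of 5 nt at an unannotated junction and 3 nt at an annotated one. Cryptic reads may therefore be undercounted against annotated ones. Junctions on autosomes and X were matched to GENCODE release 29.

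Shares were tested with edgeR 4.0.16 (quasi-likelihood fit and diffSpliceDGE, junctions grouped by donor) for junctions with at least 5 reads in 2 libraries at donors with a mean of at least 20 reads, and called at an adjusted p below 0.05 with groups 5 or more percentage points apart. Junction and gene abundance were tested with edgeR's quasi-likelihood test (TMM factors, filterByExpr). Gene sums took introns of 1 gene, so 4.22% of annotated reads, in introns of several genes, were left out, among them 1 DPH1 intron. CPM per library use factors from all 8 libraries, and log2 changes come from the day 4 or day 8 libraries alone. All p-values were adjusted by Benjamini-Hochberg over every feature tested. Alternatives used limma 3.58.1 and DESeq2 1.42.0, other filters and factors, and fewer or more libraries. The fits were tested on simulated data first. The members and lists were chosen with earlier results of these data known. The text names all 7 genes, called junctions, those of the DPH5 cryptic donor, the most used alternative acceptor of each gene and the extremes of the other list; junctions named outside this rule are marked. No p was computed for likeness. Some of the genes most like DPH5 are not reported here.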

Additional observations from a re-analysis of the deposited data

How the results depend on the processing

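With 2 libraries per group, precision is limited, and depth at the DPH5 donor was 160 to 611 reads. The rise of the DPH5 cryptic share at day 4 kept its direction and call with limma (adjusted p = 0.000715), with no filter, with multi-mapped reads added, with the replicate block and without any 1 library (47.1 to 53.0 points). It was 57.9 points among cryptic and reference reads alone, and in a fit of all 8 libraries it was 49.8 points with an adjusted p of 1. In that fit the reference junction (-2.34) and cryptic junction (4.99) were not called either, and no acceptor, junction or gene was called (0 each). Leaving out 1 day 4 library gave 8 to 110 acceptors, 118 to 21944 junctions and 0 to 2536 genes called, log2 changes of -2.51 to -2.17 for the reference and 4.49 to 5.82 for the cryptic junction, -1.21 to -0.96 for the DPH5 gene sum, and 0 to 2 of the 7 genes called. Without a filter 11932 junctions and 1567 genes were called and the DPH5 gene sum passed (-1.09); DESeq2 called 1640 genes and DPH5 (-1.08), and each called 1 of the 7 genes.

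Replicate numbers are shared across groups. At day 4 the difference of replicate 1 minus 2 in WT correlated with that in K700E at 0.141 over genes. This value cannot decide whether replicates of the same number were paired. The replicate block called 8023 junctions and 126 genes, against 3085 and 74 without it, and moved no call of the DPH5 results. Small changes turned sign: DPH7 at day 4 in the 8-library fit (-0.00099), and without 1 library DPH7 (-0.087 to 0.11) and DPH3 (-0.61 to 0.17) at day 4 and DPH3 (-0.023 to 0.45), DPH5 (-0.51 to 0.15), DPH6 (-0.75 to 0.22) and EEF2 (-0.64 to 0.23) at day 8. The day 8 share ranged from -39.8 to 27.8 points; without either replicate 2 it could not be tested. The causes were not tested. For day 8 against day 4, chosen after the values were seen, leaving out 1 library kept the 3 calls, with 2897 to 5980 genes called; without either WT day 4 library there were 3406 and 2897.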
